A study of Mus musculus with 18 samples.

Results

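Fibronectin (Fn1), the integrin subunits that build its cell-surface receptors (Itga5, Itga3, Itga4, Itgav, Itgb1, Itgb3, Itgb5 and Itgb6) and the co-receptor syndecan 4 (Sdc4) were followed in mouse pancreatic ductal adenocarcinoma (PDAC) lines in which Gstt1, which encodes a glutathione transferase of the theta class, had been knocked down. These 10 genes were taken by symbol from the 16383 rows of a table of CPM values (reads of a gene scaled to the total of its library), and all 10 were found. The study asked, per its title and design text, how depletion of Gstt1 alters gene expression in cell lines from metastases. The 18 RNA-seq libraries came from 2 lines of lung metastases (42-3 and 6-2) and 4 lines of liver metastases (42-2, G45-2, 6-3 and 13-2), all grown from spontaneous metastases of genetically engineered mice. The labels give p53F/+ and KrasL/+ alleles for every line, with a p48 allele spelled p48-Cre in the 42-3 first set and p48+/T elsewhere; p48 (Ptf1a) is active in the pancreatic lineage. SIRT6F/F is named for every line but 13-2, and the NT controls share these alleles with the knockdown cells. Lentivirus delivered an NT control hairpin (8 libraries), Gstt1 shRNA 1 (6 libraries) or Gstt1 shRNA 2 (4 libraries), and RNA was taken after 48 h of puromycin and a later split of the culture. The libraries form 8 culture sets, in which the knockdown libraries of a line are read against an NT control of that line, 3 from lung and 5 from liver. Lines 42-3 and 42-2 gave 2 sets each, named first and second by their library code, and both hairpins are present in G45-2 and 6-3.

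Fibronectin is a secreted glycoprotein that cells stretch into fibrils of the extracellular matrix, and it is abundant in the stroma of pancreatic tumours and in cells that have passed through an epithelial-to-mesenchymal transition. Integrins are obligate pairs of an alpha and a beta chain. The pair of Itga5 and Itgb1 is the classical fibronectin receptor that binds its RGD loop together with a neighbouring synergy site. Pairs of Itgav with Itgb3, Itgb5 or Itgb6 also bind RGD ligands, Itga4 with Itgb1 binds an alternatively spliced segment, and Sdc4 binds the heparin-binding domain through its sugar chains and joins integrins in focal adhesions.

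Depth ran from 8411436 to 25552912 reads per library, so that 3 reads equal 0.117 to 0.357 CPM. Gstt1 was below its own NT control in 10 of 10 knockdown libraries, at 0.0687 to 23.9 CPM against 0.616 to 52.5 CPM in the controls (limma log2 change -3.27, SE 0.67, adjusted p 0.0820). Depletion was uneven. The 42-2 controls themselves held only 2.67 CPM (first) and 0.616 CPM (second), against 24.3 to 52.5 CPM in the other lines. With shRNA 1, 54.5% of the control level remained in G45-2 and 75.4% in 6-3, and with shRNA 2 11.8% and 0.98%. Line identity was checked by 7 identity transcripts (Xist, Ddx3y, Eif2s3y, Kdm5d, Uty, Cdkn2a and Cdkn2b). In 5 culture sets (42-3 first, 42-3 second, 6-2, 42-2 first and 13-2) at least 2 of them differed at least 10-fold between control and knockdown, with the higher at 10 CPM or more. At this limit 42-2 first and 13-2 differed in Cdkn2a and Cdkn2b alone, whose levels may also change within a line. G45-2 differed in Kdm5d alone, and was therefore not among the 5. At a limit of 1 CPM 42-2 first also differed in Ddx3y and Uty. The 42-2 second set joined the 5 at that limit, with Ddx3y, Eif2s3y, Kdm5d and Uty. In the knockdown fit over all sets, the 6 identity transcripts tested were all lower, with a median log2 change of -2.87 against -0.03 for all genes. Each of the 6 had an unadjusted limma p under 0.05, beside 17.1% of all genes. Identity differences thus ran with the treatment in 1 direction. In the 5 sets and in 42-2 second a difference between knockdown and control cannot be told apart from a difference between the cells compared. Knockdown changes of the members and named list genes are therefore also given without the 5 sets, which include all 3 lung sets. In the 3 sets left (42-2 second, G45-2 and 6-3) the fitted Gstt1 change was -1.37 (limma adjusted p 0.489). A smaller change of another gene without the 5 sets thus comes with a smaller Gstt1 change, and its cause was not tested. Nothing in the labels says that libraries of a line came from separate cultures, so the p-values rest on sample spread that may be partly technical. Epithelial markers were present in every library (10 of 10 genes listed, summed CPM 401 to 14730 in NT controls and 266 to 7664 in knockdowns), with Krt8 at 7.15 to 4113 CPM and Cdh1 at 1.17 to 1233 CPM. Epcam was under 1 CPM in 3 of 18 libraries. Fibroblast markers (9 of 10 genes listed) summed to 22.2 to 2929 CPM in controls and 8.49 to 6463 CPM in knockdowns. Macrophage markers (4 of 7 genes listed, Ptprc at no more than 1.67 CPM) summed to 4.35 to 16.6 CPM in controls and 1.57 to 30.1 CPM in knockdowns. The highest sum was in the 42-2 first shRNA 1 library, whose control held 4.35 CPM. Itgam, 1 of the 4 genes, held 23.0 CPM of that highest sum. Endothelial markers (5 genes, Pecam1 at no more than 1.59 CPM) summed to 0.876 to 1.81 CPM in controls and 0 to 11.4 CPM in knockdowns, the highest in the 6-2 shRNA 1 library, whose control held 1.54 CPM.

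The ligand, Fn1, was among the most abundant transcripts of these cells. It took the first place by reads in 2 libraries, at 1.36% of reads in the 42-3 first shRNA 1 library and 0.816% in the 42-3 second shRNA 2 library, and stood among the first 10 genes in 12 of 18. The lowest rank was 76, in the 42-2 first shRNA 1 library. NT controls held 1461 CPM of Fn1 at the lowest (6-3), 3826 at the median and 7384 at the highest (G45-2), with a mean of 4178 ± 2018 (SD, n = 8). Under shRNA 1 the 6 libraries ran from 837 CPM (42-2 first) through a median of 5342 to 13557 CPM (42-3 first). The shRNA 2 libraries held 1655 CPM in 6-3, 4471 in 42-2 second, 8155 in 42-3 second and 10272 in G45-2. The control range lay wholly inside that of the knockdowns, and the knockdown libraries held both the highest and the lowest value of the series, 16.2-fold apart.

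Within culture sets Fn1 moved in both directions. In the 42-3 first set it was 2314 CPM in the control and 13557 CPM with shRNA 1, a difference of 2.55 on the log2(CPM + 1) scale used for all differences here. The 42-3 second set had 3250 CPM in the control and 8155 CPM with shRNA 2 (1.33). The opposite was seen in the 42-2 first set, from 3729 to 837 CPM (-2.15), and in 6-2, from 3923 to 2293 CPM (-0.77). The remaining sets lay closer to their controls, at 0.49 in G45-2, 0.34 in 13-2, 0.05 in 6-3 and -0.09 in 42-2 second. Over the 8 sets the mean difference was 0.22 ± 1.39 (SD), with 5 sets higher and 3 lower (exact two-sided sign-flip permutation test, p = 0.664; the smallest p that 8 sets allow is 0.00781). The fit across all genes gave Fn1 a change of 0.26 (SE 0.44, 95% interval -0.71 to 1.23, limma adjusted p 0.804). Both took the 8 sets as separate, although lines 42-3 and 42-2 gave 2 each. With the cell line as the block the fitted change was 0.28 (limma adjusted p 0.771). Without the 42-3 first set the mean over sets was -0.12 (exact permutation p = 0.797). Without the 5 sets of differing identity transcripts the fit gave 0.16, and without 6 it gave 0.27.

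**Figure D1:**
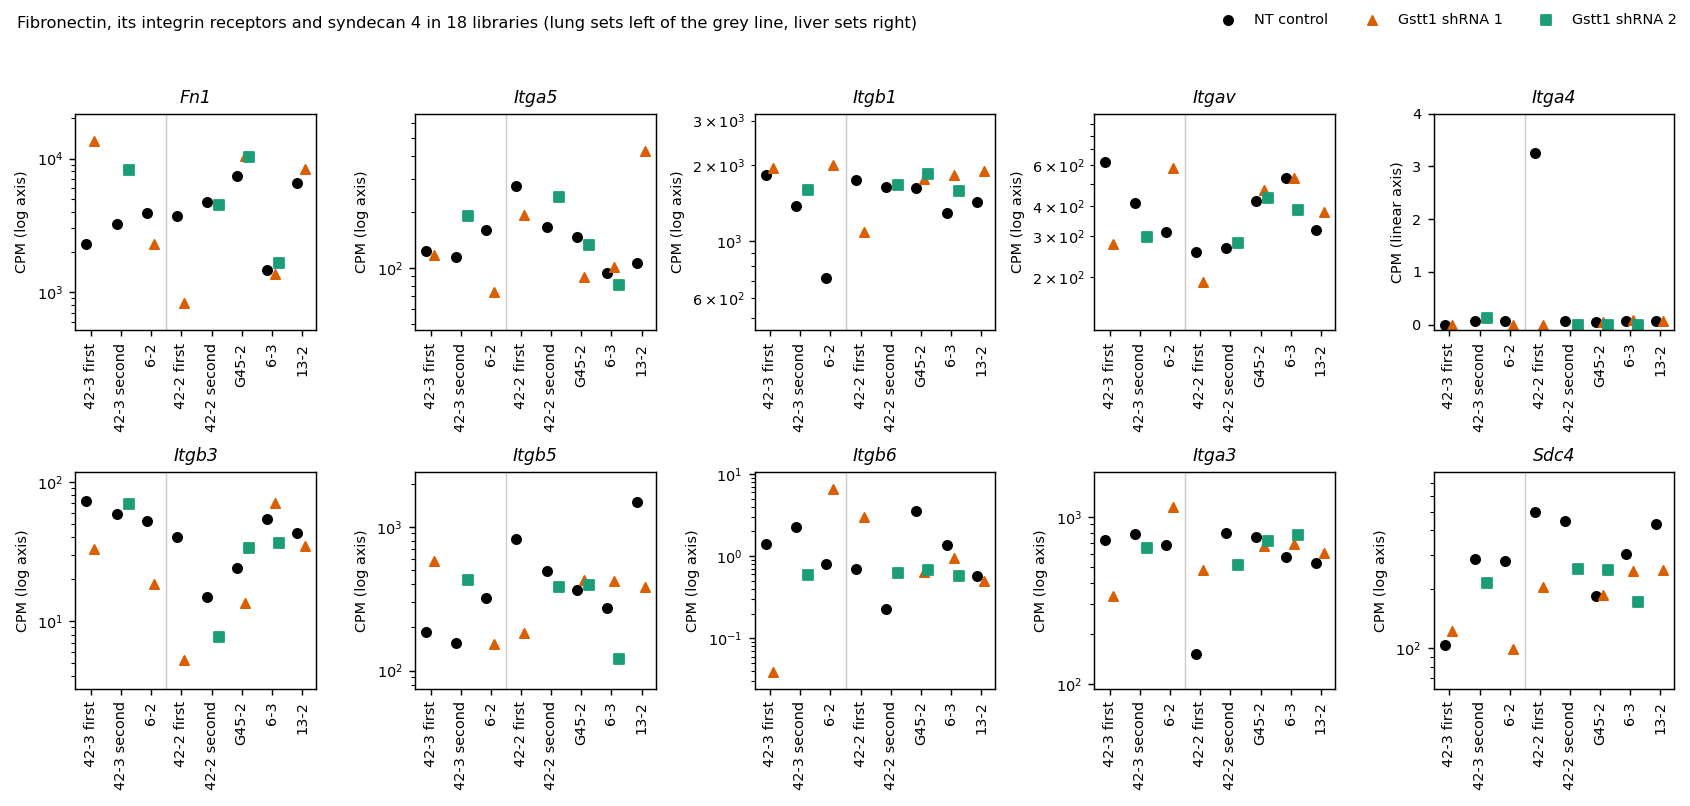
CPM of the 10 genes in each of the 18 libraries (log axis, linear for Itga4), by culture set, with lung sets left and liver sets right of the grey line; black circles are NT controls, orange triangles shRNA 1 and green squares shRNA 2. Fn1 spans 837 to 13557 CPM with knockdown libraries at both ends, and Itga4 stands above 1 CPM only in the 42-2 first control.

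Among the alpha chains, 0 of the 3 tested passed the threshold under knockdown in limma or in edgeR, at an adjusted or an unadjusted p. Of all genes limma called 0.0387% at an adjusted and 17.1% at an unadjusted p, and edgeR 0.0% and 15.1%. Beside these shares, 0 of 3 says little about the alpha chains. Itga5, the partner of Itgb1 in the classical receptor, held 93.6 to 276 CPM in NT controls (median 135) and 73.9 to 424 CPM in knockdowns (median 125), and the ranges overlapped. Its largest difference was in 13-2, from 106 to 424 CPM (1.99), and its lowest in 6-2, from 159 to 73.9 CPM (-1.09), with 3 sets higher and 5 lower. The fitted change was 0.13 (SE 0.28, 95% interval -0.48 to 0.75, limma adjusted p 0.850), and it turned to -0.11 without 13-2 and to -0.06 without the 5 sets. Itga5 was thus above the control range in 1 knockdown library and within or below it in the other 9.

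Itgav, the alpha chain shared by the RGD-binding pairs with Itgb3, Itgb5 and Itgb6, held 255 to 621 CPM in NT controls (median 366) and 191 to 582 CPM in knockdowns (median 383). It was 621 CPM in the 42-3 first control and 277 CPM in its shRNA 1 library (-1.16), while in 6-2 the control held 310 CPM and the shRNA 1 library 582 CPM (0.91). Sets were split 4 higher and 4 lower, and the fitted change was -0.14 (SE 0.20, 95% interval -0.58 to 0.31, limma adjusted p 0.774). Without the 5 sets it was 0.0090.

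Itga3, whose pair with Itgb1 is best known as a laminin receptor, held 151 to 800 CPM in NT controls (median 699.9) and 335 to 1151 CPM in knockdowns (median 662). The 42-2 first control, at 151 CPM, lay far below the other 7 controls, the next of which held 527 CPM, and its shRNA 1 library held 480 CPM (1.66). In the 42-3 first set Itga3 went from 725 to 335 CPM (-1.11). With 4 sets higher and 4 lower the fitted change was 0.08 (SE 0.26, 95% interval -0.50 to 0.65, limma adjusted p 0.912), and -0.10 without the 5 sets.

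Itga4, which pairs with Itgb1 as a receptor of leukocytes and other migratory cells, was scarcely detected. It had 66 reads (3.26 CPM) in the 42-2 first NT control and 0 in the shRNA 1 library of that set, which makes the control at least 14.6-fold higher than the 0.224 CPM that 3 reads represent in the knockdown library. All other 16 libraries had at most 1 read (0.119 CPM), below that floor. The gene did not pass the filter on low values (at least 1 CPM in at least 4 libraries) and alone among the members has no test under it; without the filter its knockdown change was -0.25 (unadjusted p 0.262, limma adjusted p 0.607).

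The common beta chain Itgb1 held 717 CPM in the 6-2 NT control and 1301 to 1822 CPM in the other 7 controls (mean 1457 ± 349, SD, n = 8). Knockdown libraries held 1086 CPM in the 42-2 first shRNA 1 library and 1584 to 1999 CPM in the other 9 (mean 1724 ± 266, SD, n = 10). It was above its control in 7 of 8 sets, from 0.03 in 42-2 second to 1.48 in 6-2, and below it in 42-2 first (-0.68). This difference, 0.25 (SE 0.24, 95% interval -0.27 to 0.77), was not past the threshold (limma adjusted p 0.627). Without the 5 sets it was 0.22.

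Itgb3, the beta chain of the vitronectin receptor, was much less abundant than Itgb1. NT controls held 14.8 to 73.2 CPM (median 47.7) and knockdowns 5.23 to 70.5 CPM (median 33.3). In the 42-2 first set it went from 40.4 to 5.23 CPM (-2.73), in 6-2 from 52.6 to 18.4 CPM (-1.46) and in the 42-3 first set from 73.2 to 33.0 CPM (-1.13). In 7 of 8 sets it lay below the control, with 42-3 second the exception (58.7 to 69.3 CPM, 0.24). Across all genes the fit gave Itgb3 a change of -0.69 (SE 0.32, 95% interval -1.39 to 0.01, unadjusted p 0.0529, limma adjusted p 0.300), which does not pass. Without the 5 sets the change was -0.33 and without 6 it was -0.12.

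Itgb5, which pairs with Itgav in a vitronectin and fibronectin receptor, varied widely between lines. Controls held 155 CPM (42-3 second) to 1495 CPM (13-2), with a median of 342, and knockdowns 120 CPM (6-3, shRNA 2) to 580 CPM (42-3 first), with a median of 386. The differences ran from -2.16 in 42-2 first (819 to 182 CPM) and -1.97 in 13-2 (1495 to 380 CPM) to 1.46 in 42-3 second (155 to 428 CPM) and 1.65 in 42-3 first (184 to 580 CPM). Sets were split 3 higher and 5 lower, and the fitted change was -0.30 (SE 0.43, 95% interval -1.25 to 0.65, limma adjusted p 0.768). It was -0.02 without the 5 sets.

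Itgb6, an epithelial beta chain whose pair with Itgav also activates latent TGF-beta, was near the detection limit. It reached 1 CPM in 6 of 18 libraries. NT controls held 0.231 to 3.51 CPM and knockdowns 0.0391 to 6.55 CPM, the highest being the 6-2 shRNA 1 library and the lowest, with 1 read, the 42-3 first shRNA 1 library. The fitted change was -0.19 (SE 0.38, limma adjusted p 0.837). Without the 5 sets Itgb6 did not pass the filter, and its mean difference over sets was -0.49 against -0.06 over all 8.

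Syndecan 4, the heparan sulfate co-receptor, was the member with the smallest p under knockdown. NT controls held 104 CPM in 42-3 first, 185 in G45-2, 279 in 6-2, 286 in 42-3 second, 303 in 6-3, 430 in 13-2, 448 in 42-2 second and 496 in 42-2 first. The shRNA 1 libraries held 98.8 CPM in 6-2, 122 in 42-3 first, 187 in G45-2, 205 in 42-2 first, 247 in 6-3 and 252 in 13-2, and the shRNA 2 libraries 172 in 6-3, 216 in 42-3 second, 251 in G45-2 and 254 in 42-2 second. No knockdown library went above 254 CPM while 6 of 8 controls did, but the 2 lowest controls lay inside the knockdown range. The means were 316 ± 135 CPM (SD, n = 8) and 200.5 ± 55.8 CPM (SD, n = 10), and the change within sets was -0.56 (SE 0.22, 95% interval -1.03 to -0.09, unadjusted p 0.0243). After adjustment over all genes it did not pass (limma adjusted p 0.222), nor did it in edgeR (log2 change -0.55, adjusted p 0.309). Lower values were seen in 6 of 8 sets, led by 6-2 (-1.49) and 42-2 first (-1.27), and higher values in 42-3 first (0.23) and G45-2 (0.23). Without the 5 sets the change was -0.32 (limma adjusted p 0.676) and without 6 it was -0.16.

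For the co-receptor with the smallest p and for the most abundant receptor chain, the bases before the start site were taken. They are from RefSeq (GRCm38.p6), 250 bases in length, written 5′ to 3′ on the strand of the gene. The Sdc4 stretch is chr2:164443189-164443438 (minus strand) and the Itgb1 stretch is chr8:128685404-128685653 (plus strand). Capitals mark matches to GGGNNTTCC, an NF-kB-type motif searched on both strands and chosen after the values were seen.
Sdc4: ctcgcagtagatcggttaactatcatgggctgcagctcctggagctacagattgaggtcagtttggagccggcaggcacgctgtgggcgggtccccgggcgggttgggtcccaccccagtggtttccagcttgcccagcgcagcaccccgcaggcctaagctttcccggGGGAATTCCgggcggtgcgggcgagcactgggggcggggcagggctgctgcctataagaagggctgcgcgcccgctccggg
Itgb1: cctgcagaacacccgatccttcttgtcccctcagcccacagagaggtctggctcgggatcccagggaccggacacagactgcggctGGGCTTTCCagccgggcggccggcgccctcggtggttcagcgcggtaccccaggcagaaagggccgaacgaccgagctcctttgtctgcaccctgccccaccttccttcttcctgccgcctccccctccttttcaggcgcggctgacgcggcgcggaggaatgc
A promoter window (250 bases before to 50 after a start) was found for 8 of 10 members, Fn1 and Itgb3 being the others, and in these windows Sdc4 and Itgb1 alone held GGGNNTTCC, which occurs in 5.82% of 32851 windows of 300 bases. The Sdc4 window also held 4 GC boxes (GGGCGG, either strand, in 35.7% of windows) and that of Itgb1 held 1. GC boxes were also found for Itga3 (3 and 1 in its 2 windows), Itgb5 (3), Itga5 (2), Itgav (1) and Itga4 (1), but not for Itgb6. A match to TGANTCA (an AP-1 motif, in 7.81% of windows) was found in 1 of the 2 Itga3 windows, and to CACCTG (an E-box, in 20.2%) in windows of Itgb6, Itga3 and Itgb5. These matches describe letters only. Binding was not measured here.

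**Figure D2:**
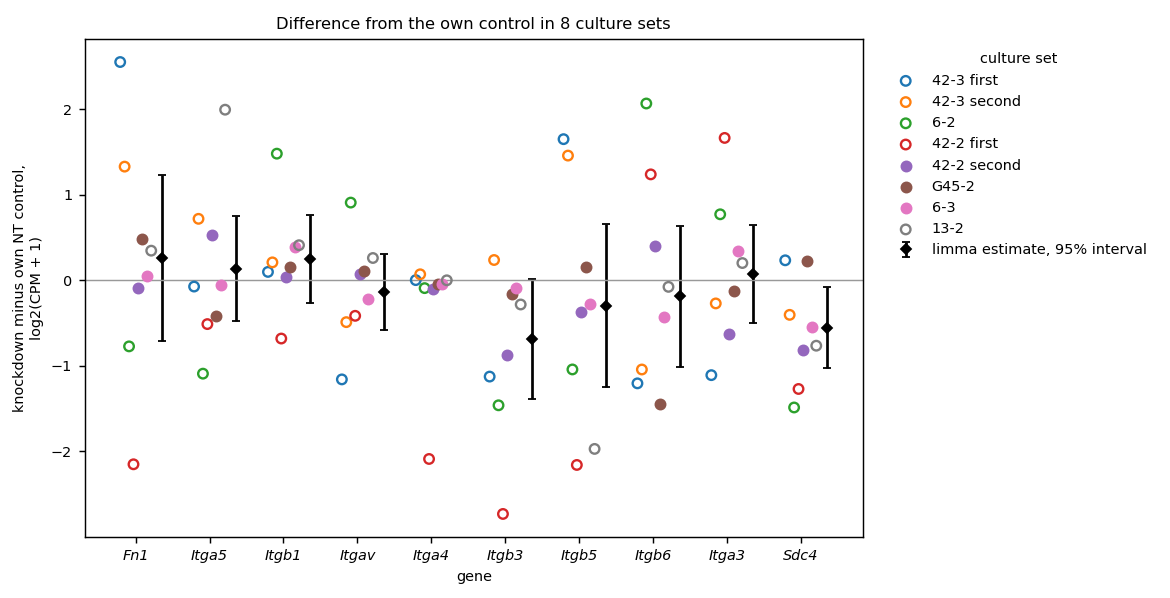
Difference between knockdown (mean of hairpins) and own NT control on the log2(CPM + 1) scale, for each gene and each of 8 culture sets, open circles being the 5 sets whose identity transcripts differ; black diamonds and bars are the limma estimate with its 95% interval, not made for Itga4. Fn1 reaches 2.55 and -2.15 in 2 open-circle sets, and only the interval of Sdc4, -1.03 to -0.09, lies on 1 side of zero.

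The members were then read against all genes tested under knockdown. Of the 9 members tested, 0 passed an adjusted p of 0.05, where 0.0387% of 12931 genes did (5 genes by limma), and edgeR called 0 members and 0.0% of genes. At an unadjusted p under 0.05 limma called 1 of 9 (Sdc4), beside 17.1% of all genes, and edgeR called the same member only, beside 15.1%. The median change of the tested members was -0.14 and that of all genes -0.03, with 4 members higher and 5 lower. No member was higher in every set (1.34% of genes were) or lower in every set (2.43% of genes were). No member separated NT controls from knockdown libraries without overlap, which 0.186% of genes did. In bulk RNA, fewer cells of a type and less RNA per cell cannot be told apart.

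Levels of different genes were compared per kilobase of exon (GENCODE M21 union exon length). Itgb1 (median 405 CPM per kb) and Fn1 (359 CPM per kb) led, and neither was consistently above the other, Itgb1 being the higher in 9 of 18 libraries. Fn1 was above the next gene, Itga3 (118 CPM per kb), in 15 of 18. Itga3, Itgb5 (107 CPM per kb) and Sdc4 (97.8 CPM per kb) were not separated, since Itga3 exceeded Itgb5 in 11 libraries and Itgb5 exceeded Sdc4 in 12. Sdc4 was above Itgav (35.7 CPM per kb) in 16 libraries, and Itgav above Itga5 (25.9 CPM per kb) in 11. Itga5 lay above Itgb3 (6.06 CPM per kb) and Itgb3 above Itgb6 (0.0967 CPM per kb) in 18 of 18. Itgb6 lay above Itga4 (0.0045 CPM per kb) in 17, the 42-2 first control being the exception. By median level per kb, Itgb1 lay above each alpha chain measured.

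Lung and liver metastasis lines were compared in the NT controls, as means of 2 and 4 lines. Itgb5 had the largest difference, with 155, 184 and 318 CPM in the lung controls and 271, 365, 493, 819 and 1495 CPM in the liver controls. The groups overlapped by the 6-2 and 6-3 controls, and the difference was -1.25 (SE 0.66, unadjusted p 0.0994, limma adjusted p 0.460), or -1.61 in edgeR (unadjusted p 0.0235, adjusted p 0.240). The edgeR fit took the 8 control libraries as separate although lines 42-3 and 42-2 gave 2 each, so its p-values are too small. Leaving out a line moved the limma difference between -1.70 (without 6-2) and -0.77 (without 13-2). Liver line 13-2 is also the only line for which SIRT6F/F is not named, and the part of this allele was not tested. Itgb3 was 52.6, 58.7 and 73.2 CPM in lung and 14.8 to 54.1 CPM in liver controls, overlapping only by the 6-3 control, with a difference of 0.76 (SE 0.39, limma adjusted p 0.450). Sdc4 was 104 to 286 CPM in lung and 185 to 496 CPM in liver controls (-0.57, SE 0.42, limma adjusted p 0.576; -0.92 to -0.23 with a line left out). Fn1 was 2314, 3250 and 3923 CPM in lung controls, inside the liver range of 1461 to 7384 CPM (-0.34, SE 0.75, limma adjusted p 0.870; -0.85 without 6-3 and -0.068 without G45-2). The other differences were -0.50 for Itgb1, 0.42 for Itga3, 0.11 for Itgav, 0.05 for Itga5 and 0.02 for Itgb6, with limma adjusted p-values of 0.610 to 0.992. By limma 0 of 9 members passed, where 0.0309% of genes did, and 0 of 9 had an unadjusted p under 0.05, beside 13.1% of genes. In edgeR 0 of 9 passed, where 0.00773% of genes did, and 1 of 9 (Itgb5) had an unadjusted p under 0.05, beside 16.5% of genes. Lung and liver controls overlapped for all 10 members, while 12.2% of genes tested separated them. All lung sets are among the 5 that differ in identity transcripts, so this comparison cannot be made without them.

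**Figure D3:**
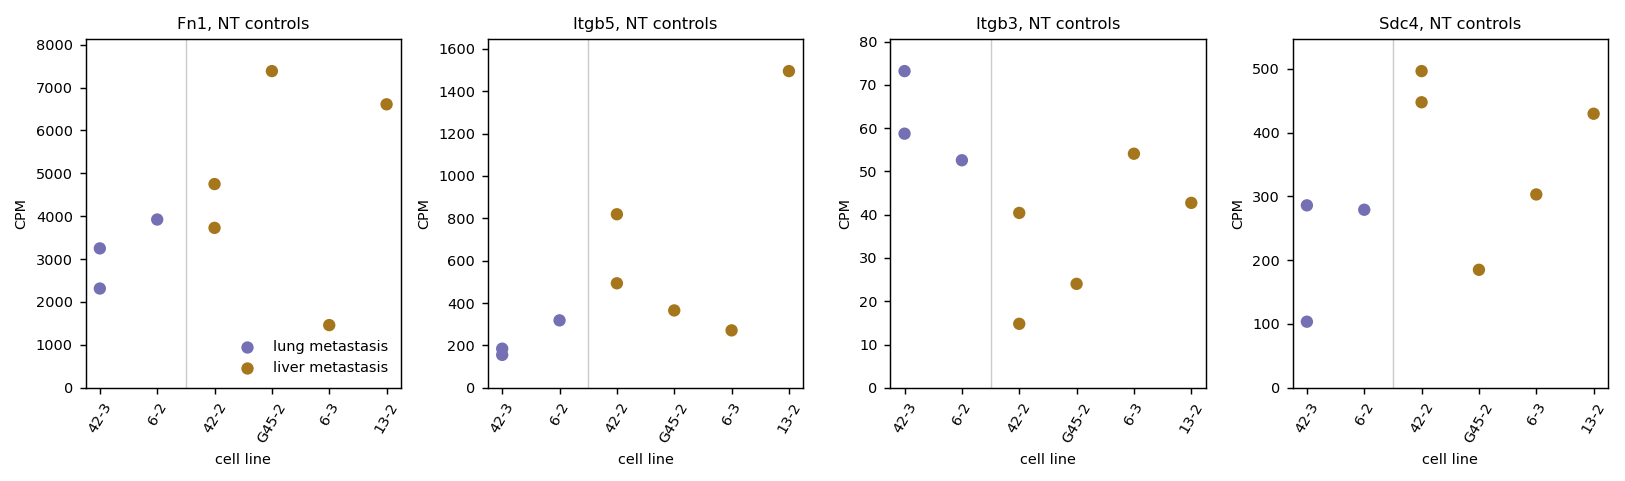
CPM of Fn1, Itgb5, Itgb3 and Sdc4 in the 8 NT controls by cell line (linear axes from 0), lung lines in purple left and liver lines in brown right of the grey line; each point is 1 library. Itgb5 reaches 1495 CPM in 13-2 and the lung and liver points overlap for each gene.

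The knockdown effect itself was also compared between sites. All 3 lung sets differ in identity transcripts, 3 of which (Eif2s3y, Uty and Ddx3y) themselves passed the threshold in this comparison, so site and identity cannot be told apart here. Fn1 had effects of 2.55, 1.33 and -0.77 in the lung sets and of -2.15 to 0.49 in the liver sets, a difference of 1.27 (SE 0.85, 95% interval -0.60 to 3.15, limma adjusted p 0.461). It was 0.43 without 42-3 first and 2.14 without 6-2. Itgb5 followed the same order, with 1.65, 1.46 and -1.04 in lung sets and -2.16 to 0.16 in liver sets (1.52, SE 0.81, unadjusted p 0.0899, limma adjusted p 0.359). For Itgb1 the difference was 0.50 (SE 0.47, limma adjusted p 0.604), and 0.064 without 6-2. With a set left out, that of Itgb5 was 1.01 to 2.39. In both sites the sets overlapped, since lung line 6-2 went with the liver sets for Fn1 and Itgb5. Among members 0 of 9 passed in limma and in edgeR, where 0.186% and 0.0696% of all genes did. At an unadjusted p under 0.05 each called 0 of 9, beside 17.7% of genes in limma and 15.6% in edgeR.

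Controls of the same line also differed. For Itga3 and Sdc4 they did so by about as much as, or more than, the largest fold between a knockdown library and its control (3.18 and 2.83). That largest fold exceeded the control differences for Fn1 (5.86), Itga5 (4.01), Itgb1 (2.79), Itgav (2.24), Itgb3 (7.74) and Itgb5 (4.49). The 2 NT controls of 42-2 held 151 and 800 CPM of Itga3 (5.30-fold), 40.4 and 14.8 CPM of Itgb3 (2.73-fold) and 819 and 493 CPM of Itgb5 (1.66-fold). Those of 42-3 held 104 and 286 CPM of Sdc4 (2.76-fold). Fn1 was closer, at 1.40-fold in 42-3 and 1.27-fold in 42-2. Between hairpins in the same set, Fn1 differed 1.01-fold in G45-2 (10400 and 10272 CPM) and 1.20-fold in 6-3. Itgb5 differed 3.49-fold in 6-3 (418 CPM with shRNA 1 and 120 CPM with shRNA 2, on either side of the 271 CPM of the control), and Itgb3 differed 2.50-fold in G45-2 (13.5 and 33.6 CPM, on either side of 24.0 CPM). These pairs have no replicates and were not tested.

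Among all 12931 genes tested, those whose pattern over the 18 libraries was most like that of Fn1, by Pearson's r of log2(CPM + 1), were Socs5 (r 0.91), Mnda (0.90), 6430598A04Rik (0.87), Grem1 (0.87) and Wisp2 (0.86). Grem1, a secreted BMP antagonist, was 530 CPM in the 42-3 first shRNA 1 library, where Fn1 was highest, and 0.746 CPM in the 42-2 first shRNA 1 library, where it was lowest. Of the members, Itgb5 came closest (r 0.57), followed by Itgb1 (0.32) and Itga5 (0.23). Sdc4 (0.05), Itgb3 (0.04), Itgav (-0.11) and Itga3 (-0.11) were near zero, and Itgb6 was negative (-0.47). The value for Gstt1 was -0.04. These correlations describe 18 libraries of 6 lines that are not independent of each other.

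Some cell type markers varied with Fn1 across the libraries. Of the 10 epithelial markers 9 had a negative r with Fn1, from -0.62 for Cdh1, the epithelial cadherin, to 0.05 for Ocln, with a median of -0.18. Krt8 (-0.15) and Krt19 (-0.09) were near zero. The 7 fibroblast markers tested were divided, 4 positive and 3 negative. The mesenchymal receptor Pdgfrb had 0.75, Col3a1, a fibrillar collagen, 0.71, Col1a1 0.36 and Col1a2 0.23, while Pdgfra (-0.10), Postn (-0.11) and Fbln1 (-0.12) did not follow Fn1. In the 42-3 first shRNA 1 library, with Fn1 at 13557 CPM, the epithelial markers summed to 1446 CPM and the fibroblast markers to 3878 CPM, against 12324 and 189 CPM in its control. Epcam had 1 read in this library and Col3a1 was 3625 CPM. In the 42-2 second control the fibroblast markers summed to 2929 CPM with Fn1 at 4750 CPM. Outside the 5 sets of differing identity transcripts, 8 libraries of 3 lines were left. Fn1 was 1380 to 1655 CPM in 6-3, 4471 and 4750 CPM in 42-2 second and 7384 to 10400 CPM in G45-2. Values of r over them thus rest largely on differences between lines. Over these 8 libraries r with Fn1 was 0.94 for Socs5, 0.94 for Mnda and -0.74 for Cdh1. It was 0.71 for Pdgfrb, 0.52 for Itgb5 and 0.09 for Gstt1. Among the members it changed most for Itgb3, to -0.62, and Itgb6, to 0.04. The epithelial markers were divided over these 8 libraries. Besides Cdh1, Krt7 (-0.41), Krt19 (-0.37), Krt18 (-0.26) and Krt8 (-0.21) were negative. Ocln (0.54), Cldn7 (0.37), Esrp1 (0.36), Epcam (0.26) and Cldn4 (0.09) were positive. Of the fibroblast markers Postn (0.45), Fbln1 (0.33) and Pdgfra (0.17) turned positive here. The part of these markers in the Fn1 differences was not tested.

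**Figure D4:**
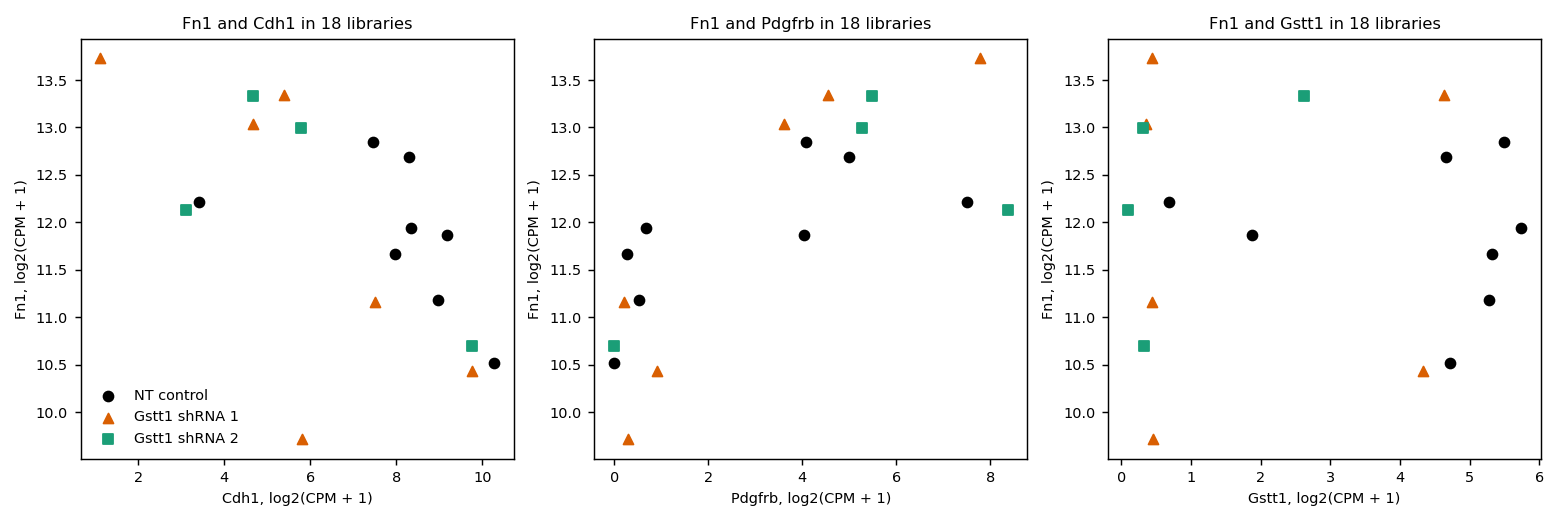
Fn1 against Cdh1, Pdgfrb and Gstt1 in 18 libraries, all as log2(CPM + 1); black circles are NT controls, orange triangles shRNA 1 and green squares shRNA 2. Fn1 is lower where Cdh1 is high (r -0.62), higher where Pdgfrb is high (0.75), and shows no order with Gstt1 (-0.04); Cdh1 and Pdgfrb have the largest r, in size, of their marker lists, other members of which lie near zero.

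Other genes of fibronectin binding and integrin function were read as lists from the same fit, in which 0 members of any list passed the threshold in limma. Of the other alpha chains 6 of 14 were tested, 2 higher and 4 lower, 1 with an unadjusted p under 0.05, a mark that 17.1% of all genes reached. That was Itga6, the laminin-receptor chain, at 280 ± 171 CPM in controls (SD, n = 8) and 546 ± 202 CPM in knockdowns (SD, n = 10). It was higher in 8 of 8 sets (1.05, SE 0.29, limma adjusted p 0.127) and 1.01 without the 5 sets. Itga1, a collagen-receptor chain, had a change of -0.91 (limma adjusted p 0.384), which turned to 0.11 without the 5 sets and 0.36 without 6. All 4 other beta chains were tested, 2 higher and 2 lower, 2 of them with an unadjusted p under 0.05. Itgb4, the partner of Itga6 in hemidesmosomes, went from 45.7 ± 33.0 to 214 ± 187 CPM (1.72, SE 0.48, limma adjusted p 0.127, higher in 7 of 8 sets), but was 0.53 without the 5 sets. Itgb7, a leukocyte beta chain, had a change of 1.23 (limma adjusted p 0.283; 1.35 without the 5 sets).

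Of the other syndecans and glypicans 7 of 9 were tested, 3 higher and 4 lower, 3 with an unadjusted p under 0.05. Gpc1, a membrane-anchored heparan sulfate proteoglycan, was higher in 8 of 8 sets (0.82, limma adjusted p 0.111; 0.58 without the 5 sets), and Gpc2 was lower in 7 of 8 (-2.07, limma adjusted p 0.117; -0.54 without the 5 sets). Other RGD and matricellular ligands gave 17 of 23 tested genes, 9 higher and 8 lower, 3 with an unadjusted p under 0.05. Vcam1, a ligand of the Itga4 pair, had -1.73 (limma adjusted p 0.157; -1.54 without the 5 sets) and the basement membrane protein Nid1 2.26 (limma adjusted p 0.218; 2.32 without them). Among 18 of 20 talin, kindlin and integrin activity genes, 9 were higher and 9 lower, and 7 had an unadjusted p under 0.05, where 17.1% of all genes did. Tln1, which links integrin tails to actin, was 348 ± 75.8 CPM in controls (SD, n = 8) and 583 ± 123 CPM in knockdowns (SD, n = 10), a change of 0.76 (SE 0.18, limma adjusted p 0.111) that was also 0.76 without the 5 sets. Tln2, its paralogue, had 1.06 (limma adjusted p 0.123; 1.41 without the 5 sets).

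Focal adhesion scaffold and kinase genes gave 43 of 44 tested, 29 higher and 14 lower, 3 with an unadjusted p under 0.05 and a median change of 0.09. Over all genes 17.1% had an unadjusted p under 0.05 in limma, 47% were higher and the median change was -0.03. Nexn, an actin-binding protein, had 1.57 (limma adjusted p 0.121; 0.55 without the 5 sets) and Zyx, a mechanosensitive adaptor, 0.38 (limma adjusted p 0.261; 0.19 without the 5 sets). Of genes of fibronectin matrix assembly and turnover 14 of 16 were tested, 8 higher and 6 lower, 3 with an unadjusted p under 0.05 and a median change of 0.19. Mmp14, a membrane-bound matrix protease, had 0.75 (limma adjusted p 0.132; 0.28 without the 5 sets) and the basement membrane proteoglycan Hspg2 0.66 (limma adjusted p 0.242; 0.14 without the 5 sets). Beside these lists, the 10 epithelial markers were all lower, with a median change of -1.19, 4 with an unadjusted p under 0.05 and 0 past the threshold. Their part in the values of the lists was not tested.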

How the data were processed

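The authors deposited 1 table of CPM values (reads per gene scaled to the library total) with 16383 genes in 18 libraries. Per the submitters' processing notes the genome was mm9. The aligner, counter and annotation were not given in the sources used here. Whole reads were recovered from the CPM steps (100% of values whole within 0.01 reads), which gave the library totals. The 12931 genes that reached 1 CPM in 4 or more libraries entered a two-sided limma 3.58.1 fit with trend on log2(CPM + 1) in R 4.3.3, with p-values adjusted by Benjamini-Hochberg over all of them and a threshold of 0.05. The culture set was a block, the hairpins were separate terms whose effects were averaged, and site by knockdown was a further term. Lung and liver controls were compared on line means. A difference on this scale understates the change of low genes.

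For Fn1 the set differences also entered an exact sign-flip permutation test. Simulated data tested the fit with 200 genes changed by a log2 fold of 2, of which 200 were called for knockdown, 198 for the site difference in the knockdown effect and 200 for lung against liver. Unchanged genes called were 10, 8 and 6 in that order. The simulated set effect was shared by control and knockdown, and lines had no spread of their own in the lung against liver data. This recovery checks the code and does not measure power in the real data, where Gstt1 at -3.27 did not pass. The pairing of libraries comes from the cell line in the labels; deviations of knockdown libraries correlated with those of their own control at -0.36 to 0.70 (median 0.02), with 4 of 10 above 0.1.

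The members and lists were chosen with earlier results of these data known. All 10 members are named, and of each other list the 2 genes of smallest p under knockdown; for the site difference in the knockdown effect, Fn1 and the 2 other members of smallest p are named. The choice of motifs followed the values. Alternatives were pseudocounts of 0.5 and 2, no filter, a CPM of at least 5, median-ratio and quantile normalization, edgeR 4.0.16 (quasi-likelihood) on the recovered reads, no block, the line as block, and leaving out sets or lines. Python 3.11.15 and matplotlib 3.10.9 were used for tables and plots.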

Additional observations from a re-analysis of the deposited data

Results flagged for a closer look

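In 30 groups, each 1 of the 10 members under the NT control, shRNA 1 or shRNA 2, 6 values in 5 libraries stood apart from the rest of their group by Dixon's gap criterion at 95%; groups drawn at random give some such gaps by chance, about 1 in 20. Itgb1 was 717 CPM in the 6-2 NT control, the lowest of 8 controls, and 1086 CPM in the 42-2 first shRNA 1 library, the lowest of 6. Itga3 was 151 CPM in the 42-2 first NT control, the lowest of 8. Itga4 was 3.26 CPM in the same control, where the other 7 had at most 1 read, and the 0.119 CPM flagged in the 42-3 second shRNA 2 library is a single read against 0 in the other 3. Itgb5 was 120 CPM in the 6-3 shRNA 2 library, the lowest of 4. The 6-2 and 42-2 first sets are among the 5 whose identity transcripts differ, and 6-3 is not. No member had knockdown effects that differed between lung and liver sets by the test of that difference.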

How the results depend on the processing

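No member passed the threshold under the alternatives run, which covered 9 members in the knockdown and control comparisons and 3 (Fn1, Itgb5 and Itgb1) for the site difference in the knockdown effect. Direction was kept in 158 of 168 values for knockdown (smallest limma or edgeR adjusted p 0.161), 105 of 116 for lung against liver controls (0.236) and 51 of 51 for those 3 members in the last comparison (0.168). The counts over all genes were not stable. The 5 genes called under knockdown became 0 without the filter, 0 with edgeR (1959 at an unadjusted p under 0.05), 0 without the 5 sets of differing identity transcripts, 0 without the 6, and 0 to 8 when each set was left out (8 without 42-3 first, 3 without G45-2, 0 without each of the others). With no replicate block the knockdown count was 84, and with the cell line as the replicate block it was 51. The 4 genes of lung against liver became 2 with a pseudocount of 0.5, 18 without the filter, 14 at a CPM of at least 5, 1 with edgeR, and 0 to 159 when each line was left out (159 without 6-3, 7 without G45-2, 0 without each of the others). The 24 genes of the site difference in the knockdown effect became 41 with quantile normalization, 9 with edgeR, 2 with no replicate block, and 0 to 48 when each set was left out (0 without 42-3 first, 48 without 42-2 first). Among genes with an unadjusted p under 0.05 for knockdown, 41.1% were higher, and 52.3% after quantile normalization.

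Small member differences changed sign. With each set left out in turn, the mean of Fn1 over sets (0.22) was -0.12 to 0.56, and its fitted change was -0.040 to 0.53. Itga5 under knockdown was -0.064 without the 5 sets, -0.24 without 6 and -0.11 to 0.27 when each set was left out; Itgav was 0.0090 without the 5 sets. Itgb6 was 0.058 with quantile normalization and -0.43 to 0.020 when each set was left out, and Itga3 was -0.10 without the 5 sets and -0.10 to 0.23 when each set was left out. Between lung and liver controls Itga5 was -0.21 with edgeR and -0.16 to 0.28 when each line was left out, Itgb1 -1.07 to 0.075, Itgav -0.24 to 0.46 and Itgb6 -0.30 to 0.36, with -0.0075 for Itgb6 at a pseudocount of 2. The causes were not tested. Depth limits Itga4, at 0 or 1 read in all libraries but 1, and Itgb6, under 1 CPM in 12 of 18, and 2 lung lines limit each comparison of sites.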
